A study of Mus musculus with 4 samples.

Results

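The heart draws most of its energy from fatty acids, and the genes described here carry them from the blood across the capillary wall or regulate that transport. They were 10 genes chosen by name out of 21755 protein-coding genes of the mm10 annotation (GENCODE M21): the transcription factors *Meox2*, *Tcf15* and *Pparg*, the lipolysis genes *Gpihbp1* and *Lpl*, the membrane transporter *Cd36*, the fatty acid binding proteins *Fabp4*, *Fabp5* and *Fabp3*, and the glycerol channel *Aqp7*. The rule uses names and no measured value. Triglyceride-rich lipoproteins are split at the capillary surface by lipoprotein lipase, which cardiomyocytes and adipocytes secrete and which the endothelial protein GPIHBP1 carries to the lumen. The released fatty acids enter endothelial cells with the help of CD36 and are bound inside by FABP4 and FABP5, while FABP3 is the binding protein of heart muscle. MEOX2 and TCF15 are known to act as a pair in the endothelium of heart capillaries, where they promote this uptake, and PPARG is the nuclear receptor best known for the same genes in fat.

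Accessible chromatin was measured by ATAC-Seq, in which the transposase Tn5 cuts exposed DNA, in nuclei sorted from whole hearts of male C57BL/6 mice aged 8 to 12 weeks. All animals carried NuTRAP and Cdh5-Cre. NuTRAP is a reporter that tags nuclei with GFP once Cre is expressed, and the Cre was driven by *Cdh5*, the gene of VE-cadherin, so that GFP marks nuclei of endothelial descent. There were 2 libraries of GFP+ nuclei and 2 of GFP- nuclei, which are all other sorted heart nuclei together, from 100 to 50000 nuclei per reaction. The paper selected single nuclei of 2n DNA content by DAPI before the GFP gate, so nuclei of higher DNA content were left out. The authors called 1 list of peaks per population from both replicates, so no value below has a replicate error, no difference has a replicate check, and none was tested. Read depth was not analysed here.

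The GFP- list held 78912 peaks over 52.1 Mb and the GFP+ list 65008 peaks over 41.8 Mb. Each peak carries an area, the signal of the authors' caller summed over its length. Each was given a rank, the percentile of its area within its own list from 0 to 100. A rank therefore grows with the length of a peak as well as with its height. Near rank 100 a few points can stand for a large difference in area. A start peak overlaps the window from 250 bp before to 250 bp after any annotated start of transcription, a gene takes the rank of its highest start peak, and rank 0 means no start peak in that list. Rank differences are GFP+ minus GFP- in points. A peak counted as shared if any peak of the other list overlapped it, even by 1 bp. In a sorted population, a site open in a few nuclei and a site weakly open in many cannot be told apart.

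The labels were checked against marker genes. Of 8 endothelial markers, 6 ranked over 20 points higher in GFP+ nuclei, with *Cdh5* at 18.0 in GFP- and 85.3 in GFP+, while *Tek* ranked lower (81.1 and 54.1). Of 7 fibroblast markers, 4 had a start peak only in the GFP- list, as had 3 of 7 mural markers. All 8 cardiomyocyte markers had start peaks in both lists, at ranks of at least 82.7 in GFP- and 79.6 in GFP+. Of 6 macrophage markers, only *Cd68* had a start peak (31.8 in GFP- and 16.8 in GFP+). Among 6 adipocyte markers, *Plin1* (49.9 and 20.2) and *Cidea* (76.0 and 70.6) had one, and *Adipoq*, *Cidec*, *Lep* and *Retn* were at rank 0 in both lists.

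Sequences are shown for *Gpihbp1*, *Fabp4* and *Aqp7*, the 3 genes with the largest start differences, and for the highest-ranked *Cd36* peak called only in GFP+. All are from the RefSeq assembly GRCm38.p6 (mm10), written 5′ to 3′ in the direction of transcription of the gene, and capitals mark a match to a searched word other than the E-box, the frequent word CANNTG of bHLH factors such as TCF15. The *Gpihbp1* start is chr15:75596428-75596627 on the plus strand, the 200 bases before the first annotated base, and the *Gpihbp1* upstream site is chr15:75594738-75594937 on the plus strand, around the summit of a GFP+ peak with no GFP- counterpart. The *Fabp4* upstream site is chr3:10213770-10213969 on the minus strand. The *Cd36* upstream site is chr5:17898963-17899162 and the *Aqp7* start chr4:41048140-41048339, both on the minus strand.
Gpihbp1 start: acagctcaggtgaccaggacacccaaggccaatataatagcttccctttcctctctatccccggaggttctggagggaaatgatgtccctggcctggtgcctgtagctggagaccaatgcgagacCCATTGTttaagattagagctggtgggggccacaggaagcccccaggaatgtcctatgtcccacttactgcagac
Gpihbp1 upstream: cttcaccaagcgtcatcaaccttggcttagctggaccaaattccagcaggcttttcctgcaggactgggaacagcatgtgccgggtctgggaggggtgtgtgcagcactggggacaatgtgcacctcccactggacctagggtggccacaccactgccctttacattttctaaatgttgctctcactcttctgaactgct
Fabp4 upstream: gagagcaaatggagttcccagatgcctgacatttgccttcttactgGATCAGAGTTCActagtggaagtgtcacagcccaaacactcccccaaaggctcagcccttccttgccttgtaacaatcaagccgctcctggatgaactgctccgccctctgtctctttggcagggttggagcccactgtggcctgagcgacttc
Cd36 upstream: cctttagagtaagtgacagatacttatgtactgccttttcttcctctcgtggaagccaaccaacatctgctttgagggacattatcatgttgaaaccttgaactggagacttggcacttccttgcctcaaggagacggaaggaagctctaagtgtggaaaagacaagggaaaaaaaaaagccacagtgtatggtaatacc
Aqp7 start: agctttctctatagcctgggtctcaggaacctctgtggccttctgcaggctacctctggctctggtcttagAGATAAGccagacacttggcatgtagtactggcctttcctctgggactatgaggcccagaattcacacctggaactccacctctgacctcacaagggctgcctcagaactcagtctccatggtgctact

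In the *Gpihbp1* start the capitals are the SOX word CCATTGT from base 126, counted from 1 at the 5′ end of the printed run. SOX factors of the SOXF group are regulators of endothelial genes, and this word lay in the 200 bp around the summit of 2.82% of all GFP+ peaks. The *Fabp4* upstream site holds GATCAGAGTTCA from base 47, which matches a pair of GNTCA with NA between them, a relaxed form of the direct repeat bound by PPAR-RXR dimers that was chosen after the sequence had been read. That word lay in 0.366% of all GFP+ peaks. In the *Aqp7* start the capitals are the GATA word AGATAAG from base 72, which 3.26% of GFP+ peaks held near their summits, though here it lay farther than 100 bp from the summit. The *Gpihbp1* and *Cd36* upstream sites held none of the words searched except 1 E-box each. E-boxes also lay in the *Gpihbp1* start (1), the *Fabp4* upstream site (3) and the *Aqp7* start (2), and 67.3% of all GFP+ peaks held at least 1. A match of letters is a description and no evidence of binding.

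All 10 genes had a start peak in at least 1 list, against 62.7% of all protein-coding genes. The start peak was in both lists for 9 of the 10 (93.8% of the 13643 genes with a start peak), only in GFP+ for *Fabp4* (1.46%), and only in GFP- for none (4.71%). *Gpihbp1* and *Fabp4* ranked over 20 points higher in GFP+, as did 1.94% of the 13643 genes, and none of the 10 ranked over 20 points lower (7.33%). In all, 7 of the 10 ranked higher in GFP+, as did 28.6% of the 13643 genes. By area per bp the number was the same, but *Tcf15*, *Cd36* and *Fabp3* ranked lower and *Meox2*, *Fabp5* and *Lpl* higher. The share of all genes was not recomputed for that measure. By area, the median difference was 3.02 points over the 10 genes and -0.815 points over all protein-coding genes with a start peak. For 8 of the 10 the difference lay between -3.94 and 16.6 points.

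**Figure D1:**
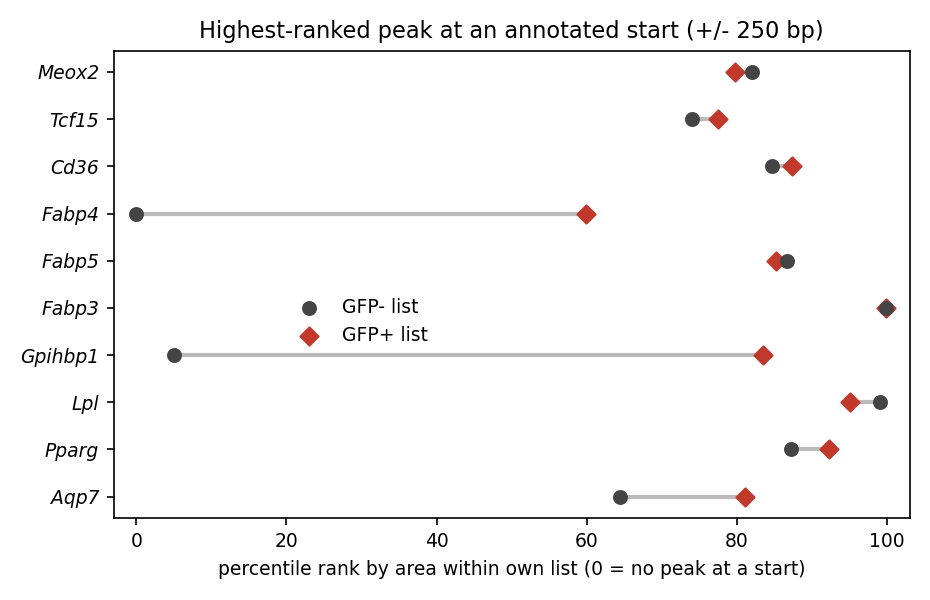
Percentile rank by area of the highest-ranked start peak of each of the 10 genes (horizontal axis, 0 to 100, 0 for no start peak), with a dark circle for the GFP- list and a red diamond for the GFP+ list, joined by a line. There is 1 pooled list per population and hence no error bar. The circle and diamond are far apart for Fabp4 (0 and 59.9) and Gpihbp1 (4.98 and 83.4), 16.6 points apart for Aqp7, and close together for the other genes.

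**Figure D2:**
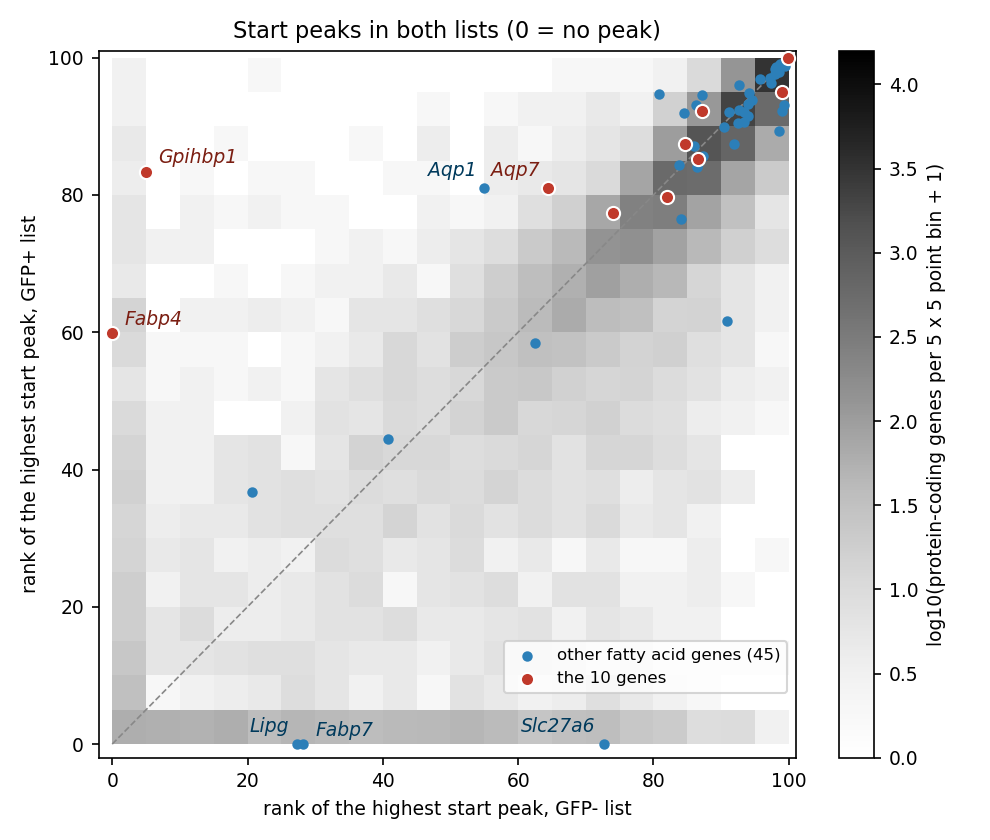
Rank of the highest start peak in the GFP- list (horizontal axis) against that in the GFP+ list (vertical axis) for the 10 genes (red), 45 other genes of fatty acid handling and its regulation with a start peak (blue) and all protein-coding genes (grey bins of 5 by 5 points, log10 scale). Most points lie near the dashed line of equal rank, and Gpihbp1 and Fabp4 lie at the upper left with few other genes.

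*Gpihbp1*, the anchor of lipoprotein lipase on capillary endothelium, had the largest difference of the 10 by area. The gene (ENSMUSG00000022579.10, chr15:75596628-75599481, plus strand) has 4 annotated starts within 40 bp. They shared 1 peak in each list. In GFP- nuclei this was a peak of 305 bp with an area of 229, which stood at position 74986 of 78912 by area. In GFP+ nuclei it was a peak of 2729 bp with an area of 2561, at position 10791 of 65008, and it ran from the promoter through most of the gene. Peaks covered 2.66% of the gene record in GFP- and 86.0% in GFP+. The site in GFP- was thus close to the smallest that the authors' caller retained, since no peak had an area under 200.

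The chromatin upstream of *Gpihbp1* differed in the same direction. A shared peak at -3465 bp from the start, 335 bp long in GFP-, ranked 24.2 there, and its counterpart of 733 bp ranked 75.8 in GFP+. A peak of 964 bp at -1790 bp was called only in GFP+, at rank 63.3, the highest of any unshared GFP+ peak of the 10 genes, and it is the *Gpihbp1* upstream sequence printed above. A small peak at 3657 bp, beyond the end of the gene, was also called only in GFP+, at rank 0.708. In all, peaks assigned to the gene spanned 640 bp in 2 peaks in GFP- and 4744 bp in 4 peaks in GFP+. The size of the start difference depended on the measure. Ranked by the -log10 p of the summit it was 65.1 points, but ranked by area per bp it was 8.39 points (6.81 and 15.2), because a peak of 2729 bp has a low mean height for its area.

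*Lpl*, which encodes the lipase itself, was open in both populations. The gene (ENSMUSG00000015568.16, chr8:68880491-68907448, plus strand) ranked 99.0 in GFP- and 95.1 in GFP+, a difference of -3.94 points. Its start peak was 4128 bp long with an area of 10815 in GFP- and 2126 bp with an area of 5624 in GFP+. In GFP+ a separate peak of 1183 bp at 2412 bp (rank 83.7) covered part of the same stretch. The rank of its start thus lay near the top of both lists, with more sequence called in GFP-. By area per bp the difference was 1.88 points, so its sign depended on the measure.

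Away from the start, several *Lpl* sites ranked lower in GFP+. A shared site at -14261 bp ranked 86.9 in GFP- and 42.5 in GFP+, and a site at an internal start near 10381 bp ranked 83.8 and 70.7. A shared site 46793 bp past the end of the gene record, just inside the limit of 50 kb, ranked 89.1 and 73.6. Others were alike in both lists, with ranks of 91.1 and 90.9 at 22669 bp in the gene and 86.3 and 85.1 at 28308 bp, just past its end. Of 13 GFP- peaks of *Lpl*, 5 were called in GFP- only, at ranks between 13.3 and 36.3, and of 11 GFP+ peaks 1 was called only in GFP+, at rank 3.34. The peaks spanned 12309 bp in GFP- and 9193 bp in GFP+, the most sequence of the 10 genes in each list. The next site beyond the 50 kb limit, 54731 bp past the record, ranked 28.1 in GFP- and 37.0 in GFP+.

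*Cd36*, the fatty acid translocase, had open starts in both populations and its larger differences lay elsewhere. The gene (ENSMUSG00000002944.15, chr5:17781690-17888801, minus strand) has 6 annotated starts at 3 places, and all of them had a peak in both lists. At the 5′ end of the record the ranks were 67.7 in GFP- and 67.9 in GFP+. At the starts about 39 kb into the gene, the peak was 322 bp long in GFP- (rank 69.4) and 818 bp in GFP+ (rank 77.3). At the last pair of starts, 53105 and 53084 bp into the gene, the ranks were 84.7 and 87.4. By area, the peaks overlapping the internal starts thus ranked higher than the peak at the 5′ start in both populations. The summit of the highest, which gives the rank of the gene, lay 931 bp from the nearest start in GFP- and 930 bp in GFP+. Ranked by area per bp, the highest start peak of the gene in GFP- was the one about 39 kb in, so the -16.1 points of that ranking compare different starts.

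*Cd36* had 13 peaks in GFP- and 18 in GFP+, the most peaks of the 10 genes in GFP+. Of these, 2 were called only in GFP- (ranks 6.15 and 1.12) and 7 only in GFP+. The highest-ranked of the 7 were upstream of the gene, at -10262 bp (rank 61.8, 389 bp, the *Cd36* upstream sequence above) and at -30427 bp (rank 56.2), and the other 5 ranked between 1.39 and 28.6. Shared intronic sites at 44735, 11977 and 38047 bp went the other way and ranked 52.2, 72.8 and 30.1 in GFP- but 16.003, 45.8 and 20.2 in GFP+. The strongest intronic site outside the starts, at 7792 bp, ranked 80.4 and 79.7. *Cd36* is also a gene of cardiomyocytes, and the region held sites that ranked higher in either population.

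**Figure D3:**
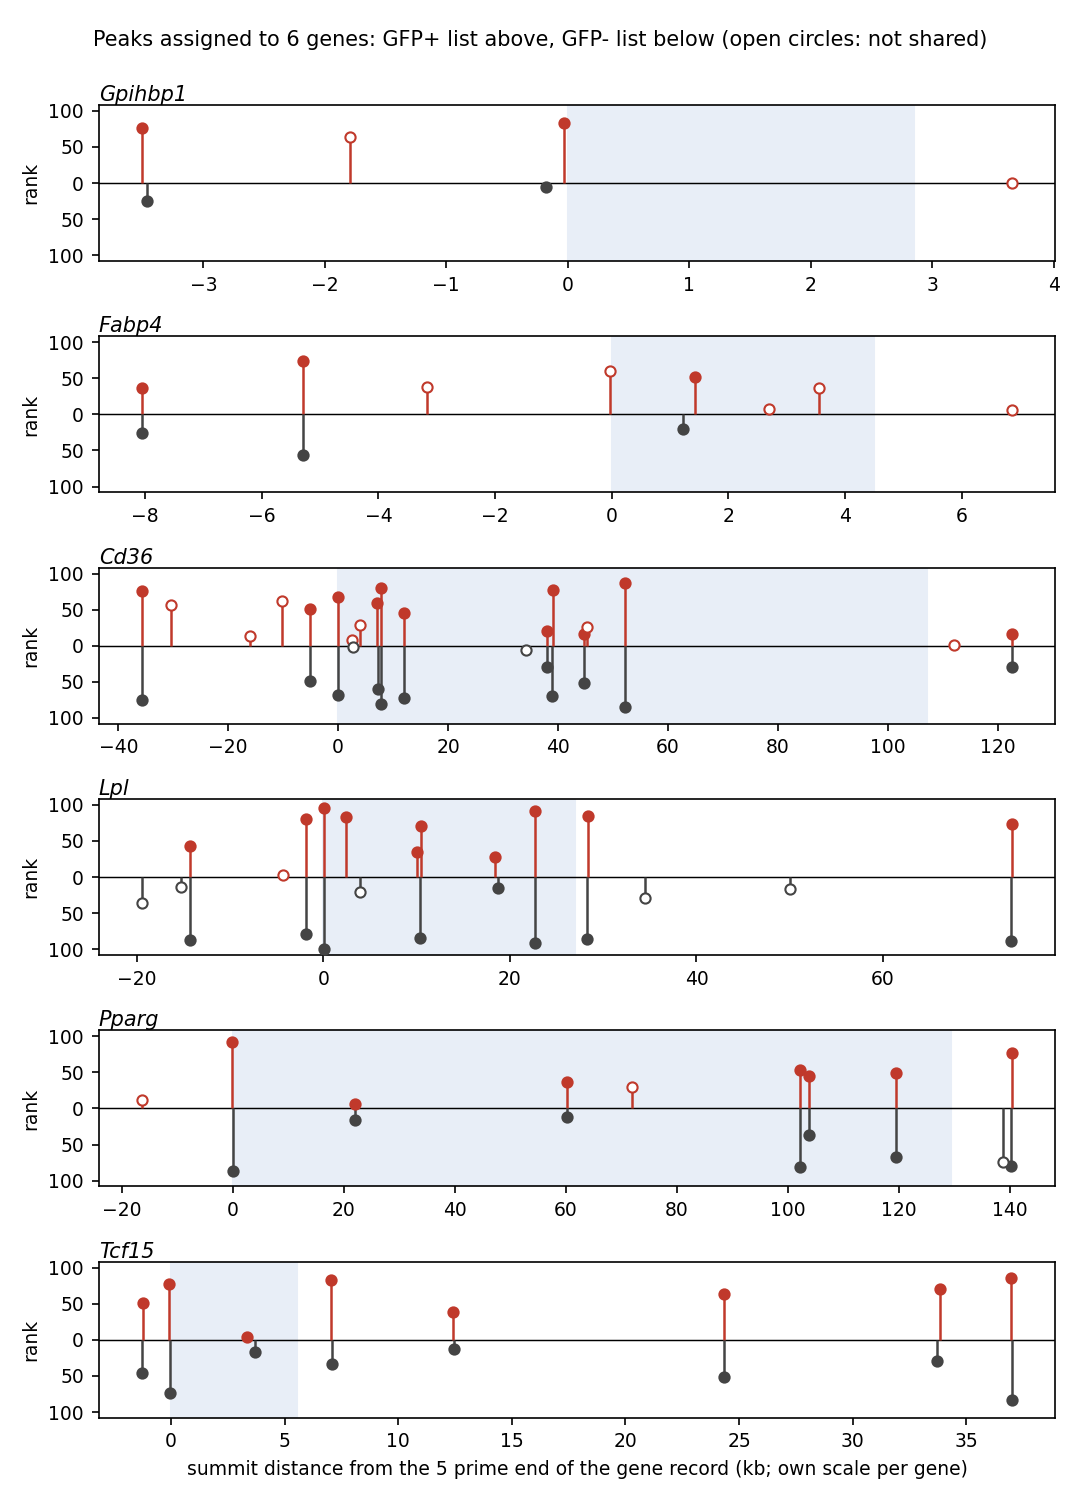
Peaks assigned to Gpihbp1, Fabp4, Cd36, Lpl, Pparg and Tcf15 by distance of the summit from the 5′ end of the gene record (horizontal axis, kb, own scale for each gene, shaded from start to end of the record), with percentile rank on the vertical axis, upward in red for the GFP+ list and downward in dark grey for the GFP- list. Open circles are peaks not shared with the other list. Gpihbp1 and Fabp4 have open circles only in the GFP+ list, Lpl has 5 in GFP- and 1 in GFP+, and Tcf15 has none.

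*Fabp4*, the adipocyte fatty acid binding protein that capillary endothelium and macrophages also make, was the only one of the 10 with a start peak in a single list. The gene (ENSMUSG00000062515.3, chr3:10204088-10208576, minus strand) has 2 annotated starts 18 bp apart. Neither had a peak in GFP-, and both lay under a peak of 516 bp with an area of 926 in GFP+ (rank 59.9). The difference of 59.9 points was 54.5 by area per bp and 44.2 when peaks of an area under 400 were left out. All *Fabp4* start values of GFP- were 0 under these settings.

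*Fabp4* had 3 peaks in GFP-, all shared, and 8 in GFP+, of which 5 were called only there. A shared site at -5294 bp, where the enhancer known from adipocytes lies, ranked 56.1 in GFP- and 74.2 in GFP+ and carries the relaxed PPAR-RXR word in the *Fabp4* upstream sequence above. Further shared sites ranked 26.4 and 36.1 at -8049 bp and 20.2 and 51.5 in the gene. Those called only in GFP+ besides the start lay at -3168 bp (rank 37.4), 3559 bp (36.6), 2699 bp (7.15) and 6858 bp (6.53). The 3 shared sites all ranked higher in GFP+. Macrophages and adipocytes also make FABP4. Of their markers, 5 of 6 and 4 of 6 had no start peak in either list, GFP- included, and the rest ranked lower in GFP+. The part of such nuclei in the *Fabp4* values was not tested. Peaks covered 9.98% of the gene record in GFP- and 40.5% in GFP+.

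*Fabp5*, the second binding protein of capillary endothelium, had a start open in both populations. The gene (ENSMUSG00000027533.10, chr3:10012548-10016607, plus strand) ranked 86.6 in GFP- with a peak of 1290 bp and 85.2 in GFP+ with a peak of 856 bp. The difference of -1.41 points was 14.5 by area per bp, so it had no fixed sign. A second GFP+ peak of 551 bp, with its summit at 703 bp (rank 42.1), overlapped the same GFP- start peak by 364 bp. A site at -2918 bp ranked 62.2 in GFP- and 59.97 in GFP+, and one at -37983 bp ranked 50.6 and 28.8. Only 1 of its peaks was unshared, at 13416 bp in GFP- (rank 13.5). *Fabp5* thus had all 4 of its GFP+ peaks in common with GFP-, whereas its neighbour *Fabp4* on the same chromosome had 3 of 8.

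*Fabp3*, the binding protein of heart muscle, had among the largest peaks of both lists over its start. The gene (ENSMUSG00000028773.8, chr4:130308595-130315463, plus strand) lay under a peak of 6797 bp in GFP- and of 6590 bp in GFP+, at positions 125 and 79 by area. The ranks were 99.8 and 99.9. Peaks covered 91.4% of the gene record in GFP- and 85.5% in GFP+. The summit of this peak fell to an overlapping gene model, *Gm10570*, under the nearest-gene rule, so the peaks assigned to *Fabp3* itself were 2 in GFP- and 1 in GFP+ in its last part, all shared. This muscle gene stood near the top of both lists. The 8 cardiomyocyte markers also had high start ranks in both, and their part in the GFP+ value of *Fabp3* was not tested.

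*Meox2*, a homeobox transcription factor, had a wide start peak in both lists. The gene (ENSMUSG00000036144.6, chr12:37108540-37179534, plus strand) ranked 82.1 in GFP- with a peak of 1989 bp and 79.8 in GFP+ with a peak of 1545 bp. The difference of -2.29 points became 5.27 by summit -log10 p and 7.03 by area per bp, so the start gave no direction. The other peaks of *Meox2* were all unshared. In GFP- they lay at -31048 bp (rank 13.3) and at 15062 bp in an intron (rank 8.42), and in GFP+ at -1655 bp (rank 35.8) and 4359 bp past the end of the gene (rank 43.5). The start was therefore the only site called in both populations. The downstream site, 356 bp long, is shown as the largest peak of the gene called only in GFP+, from chr12:37183793-37183992 on the plus strand, and it held 1 E-box and none of the other words.
Meox2 downstream: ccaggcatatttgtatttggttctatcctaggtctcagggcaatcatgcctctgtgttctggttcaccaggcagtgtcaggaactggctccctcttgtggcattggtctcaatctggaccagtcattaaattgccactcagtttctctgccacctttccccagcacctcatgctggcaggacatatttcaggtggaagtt

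*Tcf15*, the bHLH factor that pairs with MEOX2, had sites at nearly the same places in both populations. The gene (ENSMUSG00000068079.5, chr2:152143561-152149097, plus strand) ranked 74.1 in GFP- with a start peak of 1008 bp and 77.4 in GFP+ with one of 1378 bp. This difference of 3.34 points was -12.3 by area per bp. All 8 peaks in each list were shared, which held for no other of the 10 genes with more than 1 GFP+ peak. A site at 7075 bp, past the end of the gene, ranked 34.0 in GFP- (376 bp) and 82.9 in GFP+ (955 bp), and one at 33715 bp ranked 29.2 (462 bp) and 70.8 (974 bp). Sites at 12465 and 24329 bp ranked 12.0 and 51.9 in GFP- and 39.2 and 63.2 in GFP+. The farthest, at 37010 bp, ranked 82.9 and 85.2, and a pair of intronic peaks, which overlapped by only 5 bp with summits at 3711 and 3319 bp, ranked 16.3 in GFP- and 4.04 in GFP+. Of the 7 other than the start, 6 ranked higher in GFP+.

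*Pparg* was open at its 5′ end in both populations and showed no peak at its other starts. The gene (ENSMUSG00000000440.12, chr6:115360951-115490399, plus strand) ranked 87.1 in GFP- and 92.3 in GFP+ there, a difference of 5.12 points, with peaks of 1535 and 1808 bp that 4 annotated starts shared. Its 3 other starts, at 22748, 61115 and 79024 bp, had no peak within 250 bp in either list. The start at 61115 bp is that of transcript Pparg-201, taken here from its position to be the longer isoform known from fat cells. The nearest site to it, at 60140 bp, was shared and ranked 11.7 in GFP- and 36.1 in GFP+. Of the 6 adipocyte markers, 4 had no start peak in either list, and *Plin1* and *Cidea* had one in both. The part of fat cells in these values was not tested.

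Several distal sites of *Pparg* ranked higher in GFP-. Shared sites at 102229 and 119495 bp ranked 80.6 and 67.2 in GFP- and 53.3 and 49.0 in GFP+. A peak of 1047 bp at 138768 bp, past the end of the gene, was called only in GFP-, at rank 74.4, the highest of any unshared GFP- peak of the 10 genes. A shared site next to it, at 140264 bp, ranked 79.2 and 76.4. Peaks called only in GFP+ ranked 11.3 at -16290 bp and 29.5 at 71974 bp. The site called only in GFP- is shown for contrast with the GFP+ sites above, from chr6:115499619-115499818 on the plus strand. Its capitals are the AP-1 word TGANTCA from base 154, which 9.99% of all GFP- peaks held.
Pparg downstream: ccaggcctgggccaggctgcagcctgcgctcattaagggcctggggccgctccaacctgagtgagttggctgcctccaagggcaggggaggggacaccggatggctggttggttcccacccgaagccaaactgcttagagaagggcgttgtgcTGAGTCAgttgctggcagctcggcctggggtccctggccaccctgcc

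*Aqp7*, an aquaporin that passes glycerol, ranked 64.4 in GFP- and 81.0 in GFP+ at its 5′ start. The gene (ENSMUSG00000028427.13, chr4:41033074-41048139, minus strand) had start peaks of 686 bp with an area of 1157 and of 958 bp with an area of 2235. The difference of 16.6 points was the third in size among the 10, and passed 20 points by area per bp (22.7) and without peaks of an area under 400 (22.0). At the start of a transcript not coding for protein, 7172 bp into the gene, the ranks were 9.68 in GFP- and 60.6 in GFP+. A site past the end of the gene, at 16590 bp, ranked 20.03 and 69.3, and one at -2794 bp ranked 65.5 and 61.9. A peak at -7011 bp was called only in GFP+ (rank 31.7), and 2 internal starts had no peak in either list. Of the 4 shared sites, 3 ranked higher in GFP+.

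**Figure D4:**
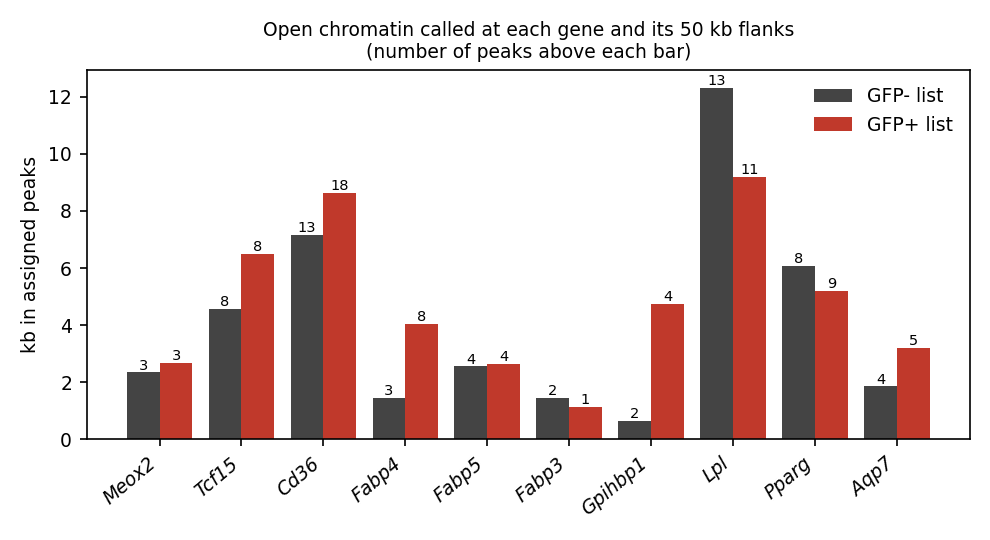
Sequence in peaks assigned to each of the 10 genes within its record and 50 kb flanks (vertical axis, kb, from 0), in dark grey for the GFP- list and red for the GFP+ list, with the number of peaks above each bar. The largest ratios between the bars are at Gpihbp1 (640 bp in GFP- and 4744 bp in GFP+) and Fabp4 (1464 and 4058 bp), and Lpl, Pparg and Fabp3 have the taller bar in GFP-. Over the 10 genes the GFP+ list holds more sequence (48000 bp, against 40421 bp in GFP-), whereas the whole GFP- list holds more than the whole GFP+ list.

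Over the 10 genes, 60 GFP- peaks spanned 40421 bp and 71 GFP+ peaks spanned 48000 bp. Of the GFP- peaks, 11 had no overlap in GFP+, which is 18.3%, against 28.2% of all GFP- peaks assigned to a protein-coding gene in the same way. Of the GFP+ peaks, 20 had no overlap in GFP-, which is 28.2%, against 12.7%. The unshared GFP+ peaks were 9 upstream, 6 in gene bodies, 4 downstream and 1 at a start, and *Cd36* and *Fabp4* held 12 of the 20. Unshared peaks were the smaller ones, with a median rank of 13.5 in GFP- and 29.0 in GFP+, against 59.6 and 63.2 for shared peaks. With sharing defined as an overlap of at least 50% of both peaks, 36.7% of the GFP- peaks (37.5% of all assigned GFP- peaks) and 46.5% of the GFP+ peaks (25.9%) were unshared.

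Words of 9 factor families were searched for in 200 bp windows centred on the summits, in either orientation. The GATA word AGATAAG lay in 6 of 71 GFP+ peaks (8.45%, against 3.26% of all GFP+ peaks) and in 6 of 60 GFP- peaks (10%, against 3.16%), at *Cd36*, *Lpl* and *Pparg* in both lists and only in shared peaks. GATA4 is a regulator of heart muscle and GATA2 of endothelium. The homeodomain word TAATTA, which MEOX proteins can bind, lay in 5 GFP+ peaks (7.04%, against 2.53%). Of these, those at *Cd36*, *Fabp4* and *Lpl* were called only in GFP+ and that at *Tcf15* was shared. It also lay in 3 GFP- peaks (5%, against 2.54%), shared ones at *Fabp4* and *Tcf15* and one at *Lpl* called only in GFP-. The E-box CANNTG lay in 43 GFP+ peaks (60.6%, against 67.3%) and 42 GFP- peaks (70%, against 69.3%), and every one of the 10 genes had a peak with it in both lists. The SOX word lay in 3 GFP+ peaks (4.23%, against 2.82%), including the start of *Gpihbp1*, and in 1 GFP- peak (1.67%, against 2.19%).

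The ETS word CNGGAAGT, of a family that includes the endothelial factor ERG, lay in 3 GFP+ peaks (4.23%, against 6.55%) and 4 GFP- peaks (6.67%, against 6.04%). The AP-1 word TGANTCA lay in 8 GFP+ peaks (11.3%, against 7.71%) and 8 GFP- peaks (13.3%, against 9.99%). The MEF2 word, CTA and TAG with 4 bases of any kind between, lay in 3 peaks of each list (4.23%, against 5.26%, in GFP+ and 5%, against 4.83%, in GFP-). The FOX word TGTTTAC lay in 2 GFP+ peaks (2.82%, against 2.68%) and 4 GFP- peaks (6.67%, against 2.62%). The full PPAR-RXR repeat, a pair of AGGNCA with 1 base of any kind between, lay in none of the peaks of the 10 genes and in 0.368% of all GFP+ and 0.354% of all GFP- peaks. These counts are of a few peaks each, and overlapping peaks of the lists share their sequence. The homeodomain, E-box, MEF2 and AP-1 words read the same on both strands and were counted once per place.

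A list of 54 other genes of fatty acid handling and of the regulators around the 10 was set beside them. Of these, 42 had a start peak in both lists, 3 only in GFP-, none only in GFP+, and 9 in neither. The 9 were *Fabp1*, *Fabp2*, *Fabp6*, *Fabp9*, *Fabp12*, *Pmp2*, *Aqp3*, *Aqp9* and *Apoc2*, mostly binding proteins and channels of gut, liver, testis, nerve or skin. Of the 45 with a start peak, 16 ranked higher in GFP+ and 29 lower, with a median difference of -0.496 points. For comparison, 28.6% of the 13643 protein-coding genes with a start peak ranked higher in GFP+, and 1.94% by over 20 points. The median difference over all protein-coding genes with a start peak was -0.815 points. By both values the list leaned no further towards GFP- than all genes did, though this was not tested. *Aqp1*, the water channel of capillaries, was the only one of the 45 over 20 points higher (55.0 in GFP- and 81.0 in GFP+). Those with a start peak only in GFP- were *Slc27a6*, a fatty acid transport protein of heart muscle (72.7 and 0), *Fabp7*, the brain binding protein (28.2 and 0), and *Lipg*, endothelial lipase (27.3 and 0).

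Genes next to the 10 in the pathway showed smaller differences. *Flt1*, the receptor of VEGFB, ranked 80.8 in GFP- and 94.7 in GFP+, *Scarb1*, a scavenger receptor, 84.6 and 91.9, and *Cav1*, of caveolae, 86.2 and 93.1. *Meox1*, the relative of *Meox2*, ranked 40.8 and 44.4. Lower in GFP+ were *Id2* (98.6 in GFP- and 89.2 in GFP+), *Acsl5* (84.0 and 76.5) and *Vldlr* (99.0 and 92.2). The transport protein *Slc27a1*, the activating enzyme *Acsl1*, the lipase inhibitor *Angptl4* and the receptor *Ppara* all ranked above 90 in both lists. Each of the 10 genes was also compared with the marker genes by its pair of ranks over the 2 lists. The closest marker was endothelial for *Fabp4* (*Emcn*, 1.86 points away), *Gpihbp1* (*Cdh5*, 13.1) and *Aqp7* (*Kdr*, 13.5). It was a cardiomyocyte marker for *Fabp3* (*Tnni3*, 0.067), *Lpl* (*Tnnt2*, 0.893), *Fabp5* (*Ryr2*, 3.72), *Meox2* (*Pln*, 4.24), *Cd36* (*Ttn*, 4.27) and *Pparg* (*Ttn*, 4.56), and the adipocyte marker *Cidea* for *Tcf15* (7.10). With 2 values per gene, and most genes high in both lists, this distance describes the ranks alone.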

How the data were processed

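ATAC-Seq libraries of GFP+ and GFP- heart nuclei (2 replicates each, grouped by their labels) were analysed from the deposited peak lists. The authors trimmed reads with fastp, mapped them to mm10, filtered them by quality (SAMtools), discarded duplicates (Picard), downsampled them to a fixed number of reads and ran Genrich in its ATAC-Seq mode on both replicates together. The submitters' processing notes name CASAVA 1.4, Bowtie2 2.3.5.1 and SAMtools 1.19. The deposited area is the signal of the authors' caller added up along the peak. The deposited -log10 p-value belongs to the summit. The deposited score is capped by the authors' caller, at its limit for 83.9% of GFP- and 82.0% of GFP+ peaks, and was not used. No peak had an area under 200, which limits what the lists can show. Read depth was not analysed here.

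Ranks by area, overlaps of at least 1 bp, distances to GENCODE M21 genes (Y chromosome and mitochondrial genes left out) and word matches were computed with Python 3.11.15, numpy 2.4.6 and pandas 2.3.3, and drawn with matplotlib 3.10.9. A peak was assigned to the nearest protein-coding gene record within 50 kb of its summit. Where records shared a symbol, only the first was used for medians. The steps were tested on simulated data. With 1 list per population there was no test, and values are described beside those of all genes or peaks. The 10 genes, the 54 pathway genes, the markers and the words were chosen with earlier results of these data known. Named in the text were the 10 genes, pathway genes differing by over 20 points (except 1 not reported here, as is the sequence of 1 start), *Cdh5*, markers in counts of 5 or fewer, and for each of the 10 the closest marker. Further pathway genes (*Flt1*, *Scarb1*, *Cav1*, *Meox1*, *Id2*, *Acsl5*, *Vldlr*, *Slc27a1*, *Acsl1*, *Angptl4*, *Ppara*), those without a start peak, and *Gm10570* were named after their values were seen. Alternatives changed the start window, ranking measure, area limit, overlap, flanks, assignment and word window.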

Additional observations from a re-analysis of the deposited data

How the results depend on the processing

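No paired analysis was possible because each population has 1 peak list made from both replicates, so no replicate block or left-out replicate could be fitted. The counts of the 10 genes with a start peak in either list (10) and ranked higher in GFP+ (7) were the same under every alternative run, but by area per bp *Tcf15*, *Cd36* and *Fabp3* turned lower and *Meox2*, *Fabp5* and *Lpl* higher. The number over 20 points higher stayed within 1.5 times, but not the genes: by area per bp they were *Fabp4* and *Aqp7*, and with areas of at least 400 *Fabp4*, *Gpihbp1* and *Aqp7*. With areas of at least 400, 2 genes had a start peak only in GFP+, because the GFP- peak of *Gpihbp1* fell below the limit. By summit -log10 p, 2 pathway genes ranked over 20 points higher, *Flt1* and *Aqp1*. Required to overlap by 50% of both peaks, 36.7% of GFP- and 46.5% of GFP+ peaks were unshared. In 100 bp windows the shares of GFP- peaks were 0% for SOX, 1.67% for TAATTA, 51.7% for the E-box, 1.67% for MEF2 and 6.67% for AP-1, and of GFP+ peaks 2.82% for TAATTA, 36.6% for the E-box and 4.23% for AP-1. In 400 bp windows SOX lay in 11.7% of GFP- peaks (4.44% of all GFP- peaks) and 12.7% of GFP+ peaks (5.08% of all). The E-box lay there in 88.3% of GFP- peaks (87.8% of all) and 83.1% of GFP+ peaks (86.8% of all). A longer window holds more words in any peak, but the SOX share rose more in the peaks of the 10 genes than in all peaks. The other 86 of 102 counts and shares stayed within their limits, which were wide. The limit was 1.5 times for a count and, for a share, a 95% interval that treats peaks as independent. The MEF2 share of GFP- peaks, 5% in the main windows and 13.3% in 400 bp windows, still lay within it. Staying within these limits is thus weak evidence that a share is stable.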
